A study of Mus musculus with 21 samples.

Results

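Indirect pathway neurons are 1 of the 2 classes of projection neuron in the striatum. The 6 genes described here, Adora2a, Drd2, Penk, Gpr6, Gpr52 and Sp9, mark them, and all 6 were found by symbol among the 21872 genes of both deposited count tables. They were chosen as known markers of these neurons, with their lower level in trientine-treated brain at 7 weeks already seen. Their values in that comparison are therefore given as a description without a test. The comparison at embryonic day 18.5 (E18.5) uses other libraries and is tested.

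The study sequenced stranded mRNA libraries from mouse brain after water (control) or after the copper-chelating drug trientine (TETA), a condition the labels call copper-deficient. There were 6 control and 6 TETA libraries at E18.5, and 5 control and 4 TETA libraries at 7 weeks after birth. The protocol names prefrontal cortex of male mice at 7 weeks, while every label gives the tissue as brain. Brain region and sex at E18.5, strain, dose, and the time and route of treatment are not given in the sources used here. Nothing states whether each library came from its own animal, so p-values measure only the spread between these libraries. Library totals were 14678265 to 24308555 counts for E18.5 and 17838051 to 24035857 for 7 weeks. The E18.5 table has 1940 genes that are at 0 in control replicate 1-1 and multiples of 11 in every other library. Their counts were divided by 11, and 0 of the 6 indirect pathway genes were among them.

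The striatum receives input from the cortex and from dopamine neurons of the midbrain, and its output leaves through projection neurons of the direct and indirect pathways. Dopamine acts through the D1 receptor on direct pathway neurons and raises cAMP. On indirect pathway neurons it acts through the D2 receptor and lowers cAMP, where adenosine at the A2A receptor has the opposite effect. The cortex holds no striatal projection neurons, but some of these genes have other sources: Penk and Sp9 are also expressed in cortical interneurons, and Drd2 in dopamine neurons.

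Drd2 encodes the D2 dopamine receptor and Adora2a the A2A adenosine receptor. Gpr6 and Gpr52 encode orphan receptors that raise cAMP. Penk encodes proenkephalin, the precursor of the enkephalin opioid peptides, and Sp9 encodes a zinc finger transcription factor needed for indirect pathway neurons to form. In RefSeq's GRCm38.p6 annotation, the assembly of the mm10 build in the submitters' processing notes, Adora2a lies at chr10:75316877-75334792 and Drd2 at chr9:49340360-49408177. Gpr6 lies at chr10:41069977-41072290, Gpr52 at chr1:160574717-160579704, Penk at chr4:4133536-4138815 and Sp9 at chr2:73271926-73275771. The Gpr52 locus lies within the span of Rabgap1l, which was at 160.7 ± 5.61 CPM in the controls and 161.1 ± 2.702 CPM under TETA at 7 weeks (SD, n = 5 and 4; CPM is the TMM-scaled read count of a gene relative to the library total). The log2 fold change of Rabgap1l was 0.00 (SE 0.034) there. In GENCODE M21 the Sp9 gene overlaps Cir1 on the other strand and Penk overlaps A830012C17Rik, and Cir1 had a log2 fold change of -0.01 (SE 0.054) at 7 weeks.

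RefSeq's promoter table, build GRCm38.p6, held 3 of the 6 genes: Drd2, Gpr6 and Sp9. These 3 are shown because they have an entry; their log2 fold changes at 7 weeks were -2.34, -2.04 and -0.36. Each window runs from 250 to 44 bases before the start that this table uses, 207 bases, in the direction of transcription. That start is the first base of the gene's record for Gpr6 and Sp9, and for Drd2 it is base 49340403, 43 bases inside the record, so the Drd2 window ends just before the record begins. Drd2 is chr9:49340153-49340359 on the plus strand, Gpr6 chr10:41072334-41072540 on the minus strand and Sp9 chr2:73271676-73271882 on the plus strand. Capitals mark matches, on either strand, to 5 motifs searched: the cAMP response element (TGACGTCA), the GC box (GGGCGG), the box of letters CCAAT, the TATA box with letters TATAAA and the EGR site with letters GCGTGGGCG.
Drd2: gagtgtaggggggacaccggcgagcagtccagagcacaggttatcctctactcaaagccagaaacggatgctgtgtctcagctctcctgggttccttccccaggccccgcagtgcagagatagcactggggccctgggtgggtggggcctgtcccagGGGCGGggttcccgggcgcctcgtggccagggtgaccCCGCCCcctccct
Gpr6: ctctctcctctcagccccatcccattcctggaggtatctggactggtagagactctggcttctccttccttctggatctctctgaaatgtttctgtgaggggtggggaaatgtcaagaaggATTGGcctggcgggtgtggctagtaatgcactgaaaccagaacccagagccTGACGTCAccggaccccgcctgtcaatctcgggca
Sp9: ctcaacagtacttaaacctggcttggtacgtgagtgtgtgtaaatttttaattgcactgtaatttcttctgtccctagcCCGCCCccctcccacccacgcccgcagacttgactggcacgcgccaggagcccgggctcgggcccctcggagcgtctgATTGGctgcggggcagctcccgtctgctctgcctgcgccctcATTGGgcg
The Drd2 window held 2 GC boxes, beginning 93 and 56 bases before the table's start. The Gpr6 window held 1 full cAMP response element, beginning 78 bases before the start, and 1 CCAAT box on the opposite strand. The Sp9 window held 1 GC box and 2 CCAAT boxes, all on the opposite strand. Among the 32851 windows of this length in the table, 0.935% held the cAMP response element, 26.0% the GC box and 29.4% the CCAAT box. The TATA box was in 9.45% and the EGR site in 0.390% of windows, and neither was in these 3. A match describes the letters only. No motif was found in all 3 windows.

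At 7 weeks the 6 genes did not differ alike between the groups. Mean levels of Adora2a, Drd2 and Gpr6 in TETA were 19.91%, 19.95% and 24.4% of control, Penk was at 33.5%, Gpr52 at 56.5% and Sp9 at 78.2%. All TETA libraries lay below all controls for 5 genes, and for Sp9 the groups overlapped. In bulk tissue, fewer cells of a type, less RNA per cell and a difference in the piece of tissue taken cannot be told apart. Of all 14240 genes tested at this age, 4.91% had every TETA library below every control and 4.28% were lower past an adjusted p of 0.05. As the genes were chosen on this contrast, nothing is read from their own count.

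Drd2 in control was at 24.8, 15.1, 21.0, 20.1 and 16.7 CPM in replicates 1 to 5, and in TETA at 5.24, 5.30, 1.72 and 3.32 CPM in replicates 1 to 4. The lowest control was well above the highest TETA library, and TETA replicate 3 was the lowest of all. The means were 19.5 ± 3.81 and 3.89 ± 1.72 CPM (SD, n = 5 and 4), and the log2 fold change was -2.34 (SE 0.20).

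Adora2a, whose receptor opposes D2 in the same cells, was at 34.2, 26.8, 35.8, 31.7 and 25.4 CPM in control. In TETA it was at 7.69, 7.30, 3.35 and 6.16 CPM. Control replicates 1 and 3 were the highest and TETA replicate 3 again the lowest. Its means were 30.8 ± 4.51 and 6.13 ± 1.96 CPM (SD, n = 5 and 4), and the log2 fold change was -2.34 (SE 0.15). The ratio of Drd2 to Adora2a within a library was 0.633 ± 0.0636 in the controls against 0.615 ± 0.105 under TETA (SD, n = 5 and 4), and the ranges of this ratio overlapped.

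Gpr6 was at 10.4, 9.31, 10.4, 8.68 and 8.11 CPM in control and at 3.44, 2.68, 0.774 and 2.26 CPM in TETA. The value in TETA replicate 3 rests on 18 reads, the fewest for any of the 6 genes, and the groups did not overlap. The log2 fold change was -2.04 (SE 0.21). Gpr52, the other orphan receptor, was at 11.7, 11.4, 13.1, 11.2 and 10.5 CPM in control and at 7.52, 5.96, 6.36 and 6.35 CPM in TETA. Here TETA replicate 1 was the highest of its group and replicates 2, 3 and 4 were close together, so replicate 3 did not stand out as it did for Drd2, Adora2a and Gpr6. The log2 fold change of Gpr52 was -0.82 (SE 0.090).

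Penk was at 152, 105, 128, 134 and 97.3 CPM in control and at 47.2, 49.0, 31.6 and 37.5 CPM in TETA. Every control lay above every TETA library, and the log2 fold change was -1.58 (SE 0.12). Relative to Adora2a in the same library, Penk was at 3.999 ± 0.342 in the controls against 7.09 ± 1.58 under TETA (SD, n = 5 and 4). The groups did not overlap in this ratio, which was 3.58 to 4.45 in control and 6.09 to 9.42 in TETA.

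Sp9 was at 6.41, 5.37, 5.798, 5.77 and 5.75 CPM in control and at 5.07, 5.41, 3.83 and 3.90 CPM in TETA. TETA replicate 2 lay above control replicate 2, and the log2 fold change was -0.36 (SE 0.12). Sp9 stood out least among the 6 genes: its log2 fold change was the 456th lowest of 14240 genes tested, while those of Drd2 and Adora2a were the 11th and 12th lowest.

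**Figure D1:**
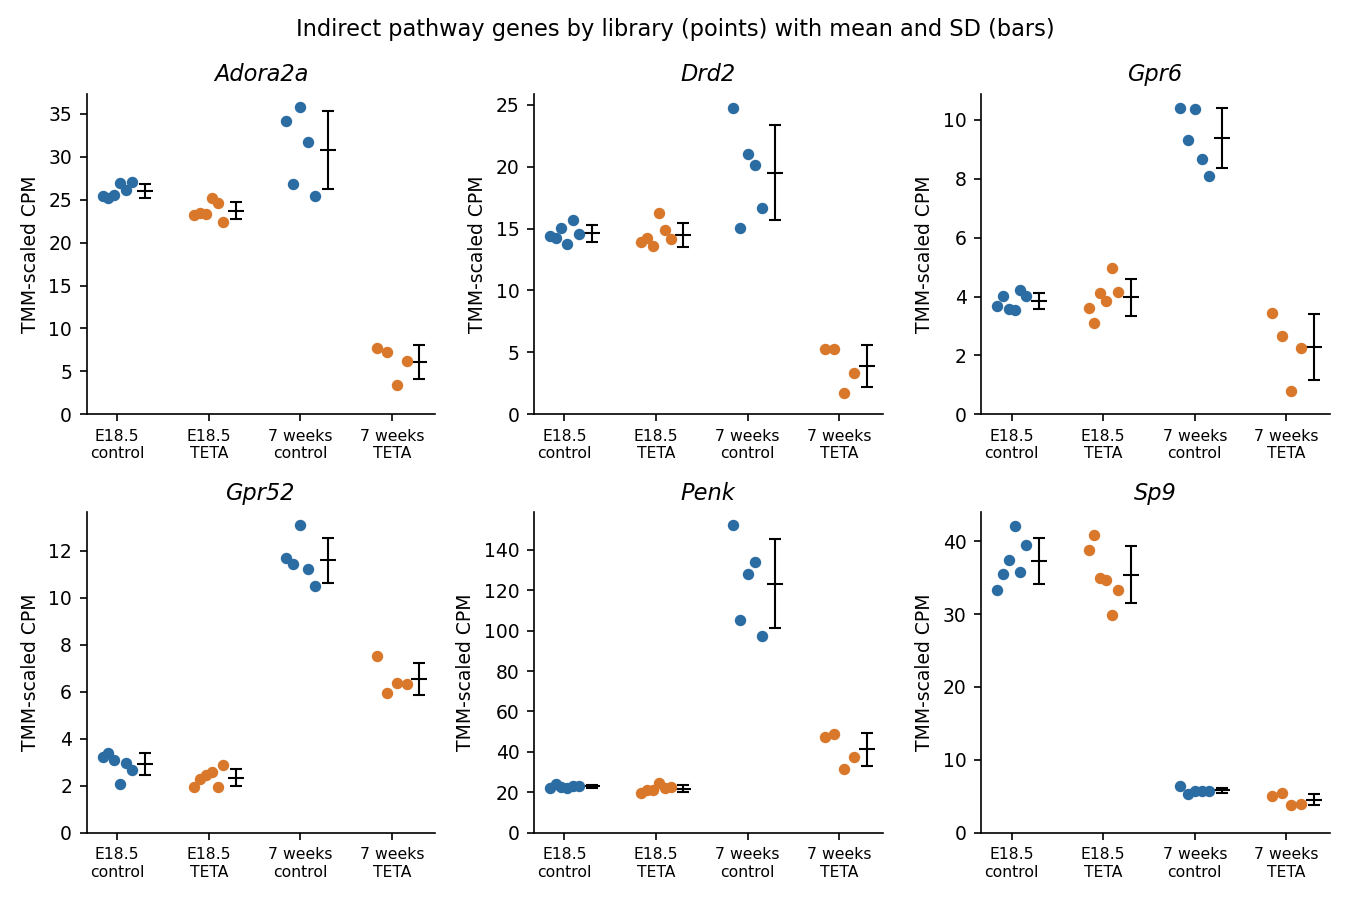
Level of each gene in every library, in TMM-scaled CPM from 0, with blue points for control, orange points for TETA and black bars for the mean and SD of each group. At 7 weeks the TETA points of Adora2a, Drd2, Gpr6, Gpr52 and Penk lie below every control point, while at E18.5 the groups of all but Adora2a overlap.

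Libraries that were low for 1 of the genes were often low for the others. TETA replicate 3 was the lowest of its group for 5 of the 6 genes, the exception being Gpr52. Control replicate 5 was the lowest of its group for 4 genes and control replicate 1 the highest for 4. The mean log2(CPM + 1) over the 6 genes was 4.52, 4.201, 4.46, 4.36 and 4.16 in control replicates 1 to 5 and 3.199, 3.12, 2.43 and 2.85 in TETA replicates 1 to 4. Pairs of the 6 genes were not tested for correlation at 7 weeks, because the groups are separate and each holds fewer than 6 libraries. Leaving out each library in turn moved the log2 fold change of Adora2a between -2.48 and -2.12, that of Drd2 between -2.55 and -2.08 and that of Gpr6 between -2.34 and -1.73. The value nearest to 0 came without TETA replicate 3 in each of these. For Penk the range was -1.67 to -1.47, for Gpr52 -0.89 to -0.77 and for Sp9 -0.45 to -0.28.

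Other genes of the striatum were also lower in TETA at 7 weeks. The lists used here and below were chosen with earlier results of these data known. Their counts past the threshold are therefore a description and no independent support. All 15 of 15 genes listed as markers of both projection neuron types were lower at an adjusted p under 0.05 by edgeR's quasi-likelihood method, where 4.28% of all genes were and 9.96% passed in either direction, with a median log2 fold change of -0.95 against 0.00 over all genes. Among those with the smallest p were Adcy5, Rgs9, Rxrg, Gng7 and Pde1b. Pde1b, a calcium-dependent phosphodiesterase, averaged 221.0 ± 13.6 CPM in the controls against 140.2 ± 7.03 CPM under TETA (SD, n = 5 and 4; log2 fold change -0.66, SE 0.044). The summed level of these 15 genes was 1815 to 2104 CPM in control and 1118 to 1273 CPM in TETA. TETA replicate 3 had the lowest mean of this list, 5.15 as log2(CPM + 1), with 5.36 to 5.49 in the other TETA libraries, and control replicate 5 was the lowest control at 6.14 against 6.23 to 6.35. The part of this list in the levels of the 6 indirect pathway genes was not tested.

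Direct pathway markers were mixed: 5 of 9 were lower past the threshold and 0 were higher, with a median log2 fold change of -0.37, or -0.22 with a mean count of at least 50, where fewer genes are tested. Drd1, the D1 receptor, averaged 30.2 ± 3.89 CPM in the controls against 14.6 ± 3.32 CPM under TETA (SD, n = 5 and 4; log2 fold change -1.05, SE 0.12). Tac1, the precursor of substance P, had -0.96 (SE 0.091) as its log2 fold change, and Pdyn, the dynorphin precursor, one of -0.37 (SE 0.055). Slc35d3 and the transcription factor Isl1, both scarce, were the other 2, at log2 fold changes of -2.14 (SE 0.20) and -2.73 (SE 0.45). Chrm4, Ebf1, Sfxn1 and Eya1 had log2 fold changes of -0.06, -0.02, -0.04 and -0.02 and did not pass. The summed level of the list was 169.8 to 194.4 CPM in control and 133.3 to 147.5 CPM in TETA.

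Of the other 7 genes listed for indirect pathway neurons, 6 were tested at 7 weeks and 3 were lower past the threshold; Upb1, with at most 18 counts in any library, was not tested. Six3, another transcription factor of the lineage, averaged 4.35 ± 1.07 CPM in the controls against 0.534 ± 0.507 CPM under TETA (SD, n = 5 and 4; log2 fold change -3.02, SE 0.37) with adjusted p = 2.77e-05 by edgeR. Gprin3 and Gucy1a1 had log2 fold changes of -0.23 (SE 0.063) and -0.12 (SE 0.035). Leaving out TETA replicate 2 or TETA replicate 4 left 1 of these 3 past the threshold. Plxdc1, Grik3 and Ptprm had log2 fold changes of 0.10, 0.02 and -0.06 and did not pass. The median log2 fold change of the 6 genes tested was -0.09.

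**Figure D2:**
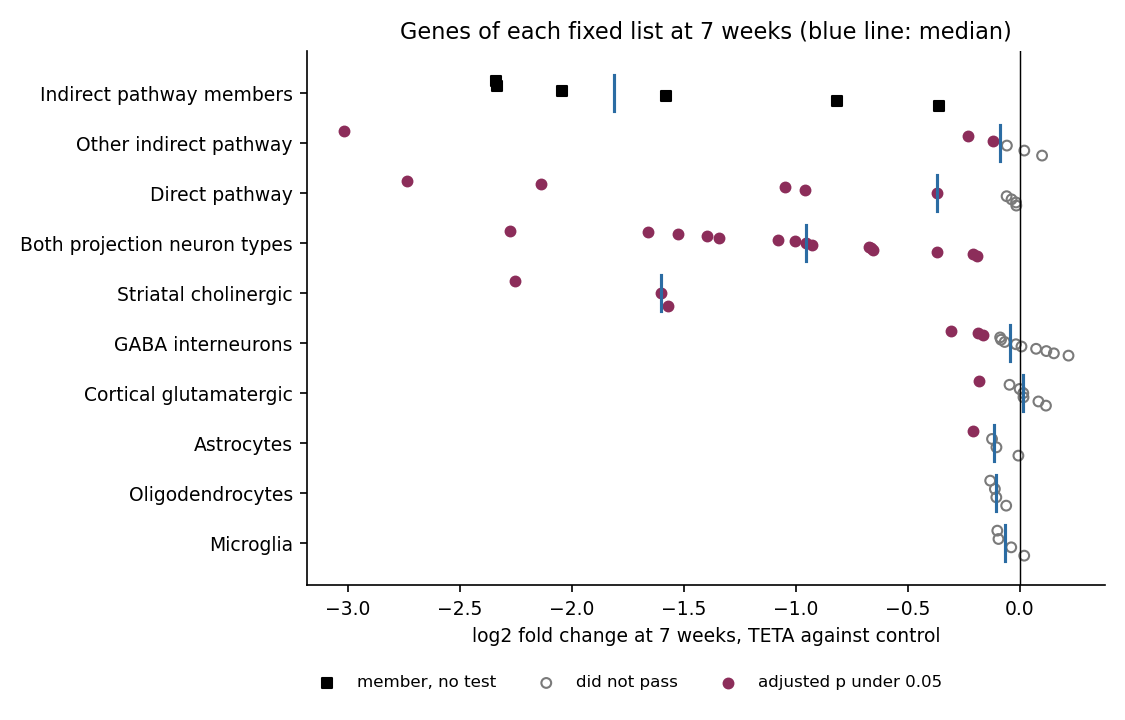
Log2 fold change, TETA against control at 7 weeks, of each tested gene of each list, with filled circles for an adjusted p under 0.05, open circles for genes that did not pass, black squares for the 6 indirect pathway genes, which were not tested, and blue lines for list medians. The 15 genes of both projection neuron types all lie below 0, and the cortical glutamatergic genes lie close to 0.

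Lists of other cell types give the tissue beside these values. The cortical glutamatergic list had a summed level of 2166 to 2333 CPM in control and 2186 to 2269 CPM in TETA; 1 of its 7 genes, Rorb, was lower past the threshold with a log2 fold change of -0.18 (SE 0.055). Rorb did not pass without control replicate 1, 2, 3 or 4 or without TETA replicate 1, 2 or 3, nor without TMM factors. All 3 striatal cholinergic genes (Chat, Slc5a7 and Slc18a3) were lower past the threshold, with log2 fold changes of -2.25, -1.57 and -1.60, and a summed level of 6.48 to 9.07 CPM in control and 2.16 to 2.49 CPM in TETA. Among 12 GABA interneuron genes, 3 were lower past the threshold (Slc32a1, Gad2 and Npy, at log2 fold changes of -0.31, -0.16 and -0.19) and 0 were higher. Over this list 7 of 12 genes had a log2 fold change below 0, with a median of -0.04. Adarb2, Lhx6, Vip and Sst were above 0, at 0.22, 0.15, 0.12 and 0.07, and did not pass. The summed level of the 12 genes was 1346 to 1405 CPM in control and 1284 to 1333 CPM in TETA. Of the 5 dopamine neuron genes, 3 were tested and 1 was lower past the threshold, Nr4a2, with a log2 fold change of -0.49 (SE 0.069). The summed level of the dopamine neuron list was 26.9 to 30.6 CPM in control and 20.8 to 24.1 CPM in TETA. Of this, Nr4a2 averaged 21.3 CPM in control and 15.2 CPM in TETA. Th and Ddc had log2 fold changes of -0.24 and 0.09 and did not pass. The defining dopamine neuron genes Slc6a3 and Slc18a2 had at most 8 and 4 counts in any 7-week library.

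Markers of glia and vessels follow. Past the threshold were 1 of 4 astrocyte genes (Aldh1l1, lower, log2 fold change -0.21), 0 of 4 oligodendrocyte genes, 0 of 4 microglia genes and 1 of 4 endothelial genes (Flt1, higher, log2 fold change 0.22). Aldh1l1 did not pass without TETA replicate 3 or 4. The summed levels were 841 to 977 and 831 to 859 CPM for astrocytes in control and TETA, 4876 to 5767 and 4398 to 5104 CPM for oligodendrocytes, 210.1 to 233.6 and 205.5 to 227.0 CPM for microglia, and 143.1 to 158.7 and 143.6 to 164.9 CPM for endothelium. Choroid plexus genes summed to 1.89 to 55.8 CPM in control and 1.68 to 3.12 CPM in TETA, where 55.8 CPM was control replicate 4 and the other controls were at 1.89 to 3.44 CPM. Without that library the median log2 fold change of the list was -0.08, against -1.60 with it. Of the 3 genes tested 1, Clic6, was lower past the threshold with a log2 fold change of -1.60 (SE 0.32). The part of these cell types in the levels of the 6 genes was not tested.

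Set against the genes of both projection neuron types in the same library, the 6 genes parted into 3 kinds. Adora2a, Drd2, Gpr6 and Penk differed by more than the mean of that list. Single genes of the list differed as these 4 did. Syndig1l and Ido1 had log2 fold changes of -2.28 and -1.66, within the range of the 4, and its other genes lay above that range. On the log2 scale, the difference between Adora2a and the list mean averaged -1.30 ± 0.120 in the controls against -2.58 ± 0.305 under TETA (SD, n = 5 and 4), a gap of -1.28 between the groups. The gap was -1.22 for Drd2, -0.82 for Gpr6 and -0.65 for Penk, and the groups did not overlap for any of these 4. Gpr52 differed about as much as the list: its difference from the list mean was -2.69 to -2.54 in control and -2.66 to -2.27 in TETA, which overlap. Sp9 was higher relative to the list in every TETA library, at -3.07 to -2.78 against -3.59 to -3.38 in control. Against the direct pathway list the gaps were -1.69 for Adora2a, -1.62 for Drd2, -1.22 for Gpr6, -1.05 for Penk, -0.23 for Gpr52 and 0.20 for Sp9, and the groups did not overlap for any of the 6. These differences come from the contrast on which the genes were chosen and carry no test.

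**Figure D3:**
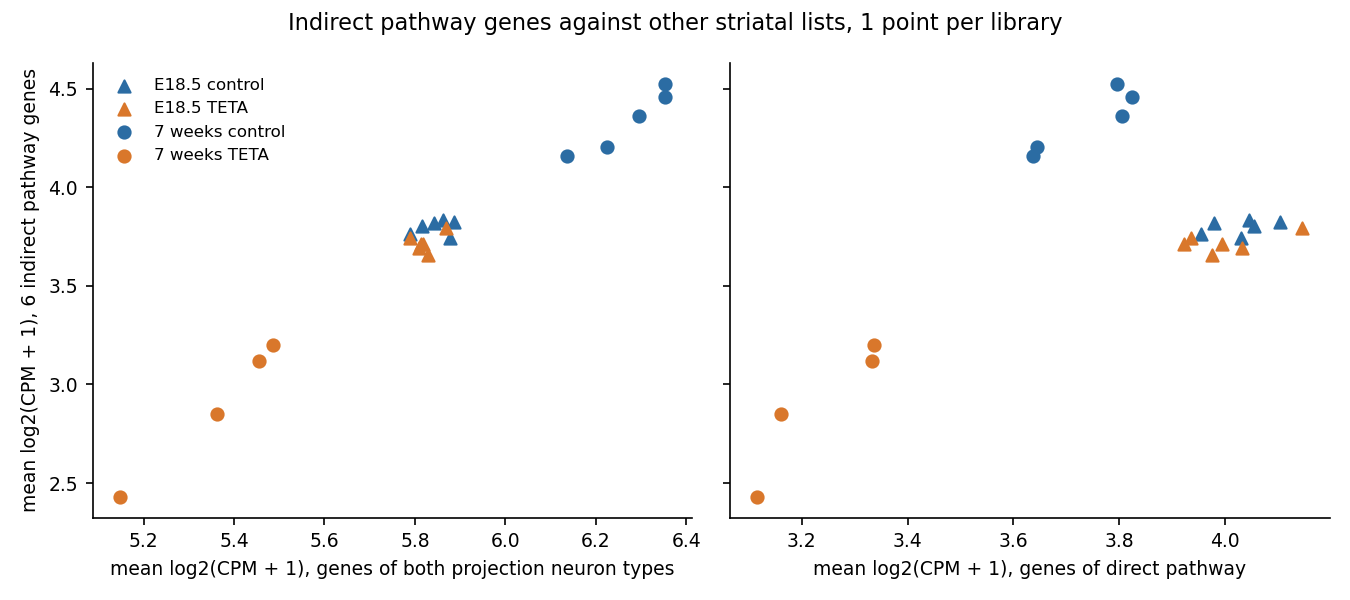
Mean log2(CPM + 1) of the 6 indirect pathway genes on the vertical axis against the mean of the genes of both projection neuron types (left) and of the direct pathway (right), with 1 point per library, triangles for E18.5, circles for 7 weeks, blue for control and orange for TETA. The 4 TETA libraries at 7 weeks lie between 2.43 and 3.199 on the vertical axis and apart from the 5 controls between 4.16 and 4.52. At E18.5 the ranges overlap in part, at 3.74 to 3.83 in control and 3.65 to 3.79 in TETA.

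Genes that carry the D2 and A2A signals inside the cell were listed as a group of 30, which shares Adcy5, Rgs9, Gng7, Pde1b, Ppp1r1b, Pde10a, Gnal and Ptpn5 with the list of both projection neuron types. At 7 weeks 11 of 30 were lower past the threshold and 1 was higher, where 5.67% of all genes were higher, with a median log2 fold change of -0.08. All 8 shared genes were among the 11. Of the other 22 genes 3 were lower (Rgs4, Pde4b and Prkar2b) and 1 was higher, with a median log2 fold change of -0.03. The 6 with the smallest p were Adcy5, Rgs9, Gng7, Pde1b, Ppp1r1b and Pde10a. Adcy5, the adenylyl cyclase on which both receptors act, averaged 302.8 ± 17.9 CPM in the controls against 190.0 ± 8.38 CPM under TETA (SD, n = 5 and 4; log2 fold change -0.67, SE 0.042). Ppp1r1b, which encodes the phosphatase inhibitor DARPP-32, and Pde10a, a striatal phosphodiesterase, had log2 fold changes of -1.08 (SE 0.075) and -0.95 (SE 0.068). Rgs9, which speeds the shutdown of D2 signalling, and Gng7, a G protein subunit, had log2 fold changes of -1.40 and -1.01. The inhibitory G protein subunits Gnai1, Gnai2, Gnai3, Gnao1 and Gnaz, which many cortical cells also use, lay between -0.05 and 0.12 and did not pass. The catalytic protein kinase A subunits Prkaca and Prkacb were both at a log2 fold change of 0.02 and did not pass. Homer1, a scaffold of glutamate receptors, was the 1 gene higher past the threshold, with a log2 fold change of 0.26 (SE 0.082).

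Of 13 genes for making, breaking down and sensing enkephalin and related peptides, 5 were lower past the threshold at 7 weeks and 1 was higher, with a median log2 fold change of -0.17. That median was -0.10 without control replicate 2, and -0.11 without TETA replicate 2 or with library quality weights in limma voom. Pdyn, Oprk1, Cpe, Mme, Pcsk2 and Pcsk1 passed. Oprk1, the kappa opioid receptor, averaged 10.1 ± 1.36 CPM in the controls against 6.77 ± 1.05 CPM under TETA (SD, n = 5 and 4; log2 fold change -0.58, SE 0.11). Mme, which encodes neprilysin, an enzyme that cleaves enkephalin, had a log2 fold change of -0.56 (SE 0.13). The processing enzymes did not move together: Cpe and Pcsk2 were at -0.19 (SE 0.039) and -0.10 (SE 0.029), and Pcsk1 at 0.19 (SE 0.055). Oprd1, the delta receptor for enkephalin, was at 0.13 (SE 0.053) and did not pass.

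Among 21 transcription factors of striatal neurons 19 were tested, and 10 were lower past the threshold and 0 higher, with a median log2 fold change of -0.21. Of the 14 that are on no cell type list 6 were lower, with a median of -0.20. Beside Six3 and Isl1, given above, Rxrg, Rarb, Foxp1 and Mef2c were among the 6 with the smallest p. Rxrg and Rarb, retinoid receptors, had log2 fold changes of -1.53 (SE 0.095) and -0.93 (SE 0.094), and Foxp1 and Mef2c had ones of -0.21 (SE 0.041) and -0.14 (SE 0.030). Sp8, the nearest relative of Sp9, averaged 2.57 ± 0.495 CPM in the controls against 2.37 ± 0.311 CPM under TETA (SD, n = 5 and 4; log2 fold change -0.12, SE 0.17), and did not pass.

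The gene whose pattern over the 9 libraries at 7 weeks was most like the mean z score of the 6 genes was Six3, with a Pearson's r of 0.996, followed by Rgs9, Drd1, Lrrc10b and Ppp1r1b at 0.993, 0.993, 0.993 and 0.991. These values are ranks of likeness, dominated by the gap between the groups, and carry no test. With group means removed, the 5 most alike were Drd1 at 0.978, Kcns3 at 0.968, Six3 at 0.966, Rgs9 at 0.964 and Casq2 at 0.961. Kcns3 and Casq2 are not on a list used here, and their log2 fold changes of -0.02 and 0.33 did not pass.

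At E18.5 the comparison asks whether the same genes differ in embryonic brain after the drug. Its libraries are other than those in which their lower level had been seen. By edgeR, 0 of the 13794 tested genes had an adjusted p under 0.05, 660 (4.78%) had an unadjusted p under 0.05, and DESeq2 called 10. Of the 6 indirect pathway genes 0 passed, 1 had an unadjusted p under 0.05 and 5 had a log2 fold change below 0, as had 51.8% of all genes. Their median log2 fold change was -0.07, against -0.00 over all genes.

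Adora2a was the gene with the smallest p. In control it lay between 25.2 and 27.1 CPM with a median of 25.8, and in TETA between 22.4 and 25.2 CPM with a median of 23.4. All 6 TETA libraries were below all 6 controls, by a narrow margin, as for 0.181% of all genes. The means were 26.03 ± 0.788 and 23.7 ± 1.01 CPM (SD, n = 6 and 6), and the log2 fold change was -0.14 (SE 0.048, 95% interval -0.24 to -0.04). Its adjusted p was 0.874 in edgeR's quasi-likelihood test (unadjusted p 0.00952), and under the alternatives the adjusted p ran from 0.349 to 1 (edgeR, limma or DESeq2). At 7 weeks, in the contrast on which the gene was chosen, the log2 fold change was -2.34, which lies outside this interval.

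Drd2 lay between 13.8 and 15.7 CPM in control (median 14.5) and between 13.6 and 16.3 CPM in TETA (median 14.2), which overlap throughout. Its log2 fold change was -0.01 (SE 0.058, 95% interval -0.13 to 0.11). Penk lay between 21.9 and 24.2 CPM in control (median 23.0) and between 19.5 and 24.6 CPM in TETA (median 21.6). Its log2 fold change was -0.07 (SE 0.056, 95% interval -0.18 to 0.05). For both genes the TETA libraries spread on either side of the controls, with TETA replicate 2-2 the highest.

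Gpr52 was scarce at E18.5, with 31 to 71 reads per library. It lay between 2.09 and 3.39 CPM in control (median 3.04) and between 1.93 and 2.89 CPM in TETA (median 2.38). Its log2 fold change was -0.28 (SE 0.14, 95% interval -0.56 to 0.01), with an unadjusted p of 0.0572 and adjusted p = 0.996 by edgeR. Gpr6, with 56 to 95 reads per library, lay between 3.56 and 4.22 CPM in control (median 3.84) and between 3.12 and 4.98 CPM in TETA (median 3.98). Its log2 fold change was 0.04 (SE 0.11, 95% interval -0.18 to 0.26). Sp9 lay between 33.3 and 42.1 CPM in control (median 36.6) and between 29.9 and 40.8 CPM in TETA (median 34.8), a log2 fold change of -0.08 (SE 0.068, 95% interval -0.22 to 0.06). The groups overlapped for all 3 genes, and the scarce orphan receptors had the widest intervals.

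**Figure D4:**
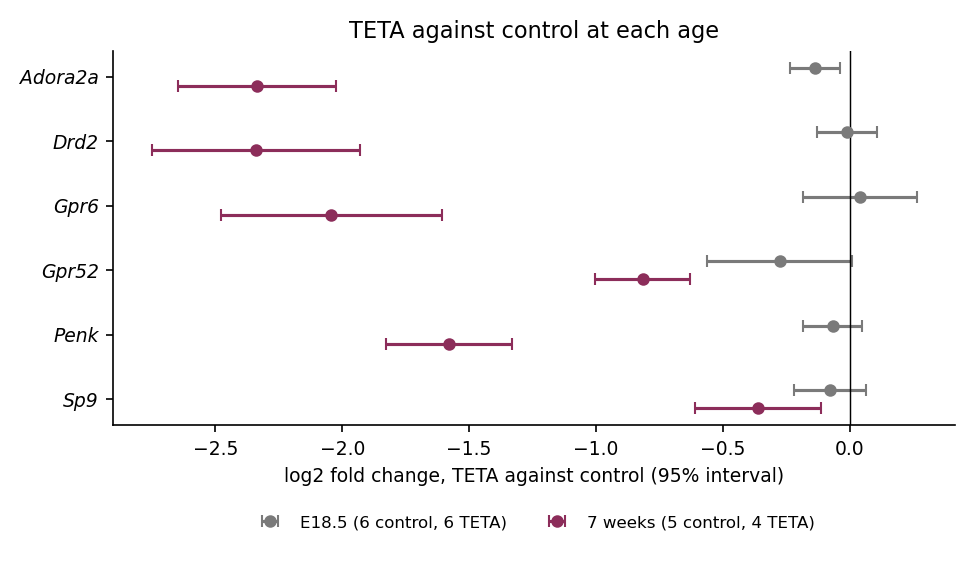
Log2 fold change, TETA against control, of each gene at E18.5 (grey) and at 7 weeks (purple), with 95% intervals from edgeR; the 7-week values are a description of the contrast on which the genes were chosen. At E18.5 the values lie between -0.28 and 0.04, and at 7 weeks between -2.34 and -0.36.

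The other striatal lists at E18.5 had no gene past the adjusted threshold. The median log2 fold change was -0.01 for the other indirect pathway genes (6 tested), -0.00 for the direct pathway genes (9 tested) and -0.03 for the genes of both types (14 tested). The gene with the smallest p in each was Six3 at -0.12 (SE 0.077), Eya1 at -0.15 (SE 0.099) and Rarb at -0.14 (SE 0.049). Rarb also had the smallest p of the transcription factors. In the lists of other cell types it was Chat at 0.28, Nr4a2 at 0.11, Reln at 0.18, Cux2 at -0.08, Aqp4 at -0.17, Mbp at 0.06, P2ry12 at -0.13, Clic6 at 0.03 and Flt1 at 0.22. Of the 3 endothelial genes tested, Flt1 and Pecam1 (log2 fold change 0.22, SE 0.062) had every TETA library above every control, as had 0.13% of all genes, with adjusted p = 0.260 and 0.604 by edgeR. The summed level of the endothelial list was 83.5 to 96.8 CPM in control and 93.9 to 103.0 CPM in TETA, and its part in the levels of the 6 genes was not tested. In the signalling list it was Arrb1 at -0.16 (SE 0.072) and in the enkephalin list Mme at -0.14 (SE 0.082). The summed level of the 6 indirect pathway genes was 101.9 to 111.0 CPM in control and 98.3 to 107.1 CPM in TETA, and that of the direct pathway genes 210.5 to 232.2 and 209.5 to 241.0 CPM, so the sums overlapped between groups.

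Whether the 6 genes vary together from library to library was asked at E18.5, where the groups overlap for each gene but Adora2a. Over 12 libraries, 15 pairs were compared on the log2(CPM + 1) scale by a permutation test with 100000 resamples. Of these pairs 10 had a positive Pearson's r, the median r was 0.22, and 0 pairs passed after BH adjustment. The highest was Drd2 with Penk, at r = 0.645 (permutation p = 0.0243, adjusted p 0.128) and Spearman's rho = 0.706 (permutation p = 0.0125, adjusted p 0.143). Without the 2 libraries farthest from the median of Drd2, r was 0.433. Penk with Gpr52 followed at r = 0.635 (permutation p = 0.0255, adjusted p 0.128) and rho = 0.643 (permutation p = 0.0282, adjusted p 0.143), with r = 0.651 after leaving out 2 libraries.

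Gpr6 and Sp9 went in opposite directions, at r = -0.769 (permutation p = 0.00371, adjusted p 0.0556) and rho = -0.643 (permutation p = 0.0285, adjusted p 0.143). Without the 2 libraries farthest from the median of Gpr6, r was -0.475, so the strength of the relation rests on those libraries. This pair passed in 5 of 15 alternatives: with group means removed, with the counts as deposited, and without control replicate 1-1, 1-2 or 3-2, where r ran from -0.853 to -0.768. Drd2 with Penk passed in 1 alternative, without control replicate 1-2. Adora2a and Drd2, which differed alike at 7 weeks, had an r of 0.361 and a rho of 0.413 (permutation p = 0.251 and 0.184, adjusted p 0.645 and 0.514). The 5 pairs with Adora2a hold its gap between the groups. With group means removed their r was 0.494 with Drd2, 0.320 with Penk, 0.205 with Gpr6, 0.06 with Sp9 and -0.550 with Gpr52, where the pooled r with Gpr52 was 0.205, and 0 of the 5 passed. All these values share the libraries and their depth.

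**Figure D5:**
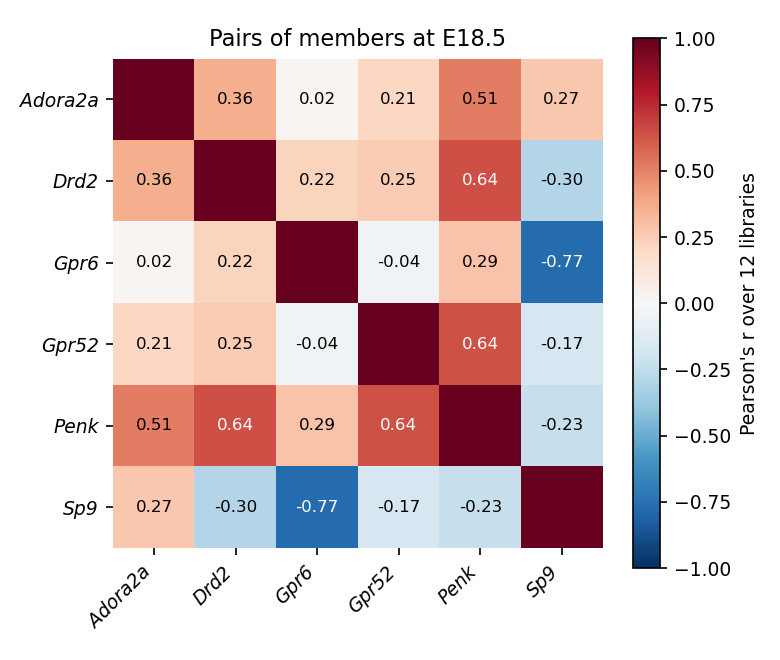
Pearson's r between the levels of each pair of genes over the 12 libraries at E18.5, on the log2(CPM + 1) scale, from blue (-1) to red (1). The highest value is 0.64, for Drd2 or Gpr52 with Penk, and the lowest is -0.77, for Gpr6 with Sp9.

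The 5 other genes most like the mean z score of the 6 over the E18.5 libraries were Rwdd2a, Ric3, Kcnj9, 3110009E18Rik and Rars, with a Pearson's r of 0.904, 0.904, 0.888, 0.880 and 0.866, given as a description. None of them is on a list used here. That mean does not stand for all 6 genes: although each is part of it, Gpr6 and Sp9 had an r of 0.231 and -0.06 to it, and Penk one of 0.908.

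Control levels at the 2 ages are set side by side without a test, since age and table differ together and the brain region at E18.5 is not given. Penk was at 22.9 ± 0.858 CPM at E18.5 and 123 ± 22.1 CPM at 7 weeks (SD, n = 6 and 5), a ratio of 5.38. Gpr52 and Gpr6 were also higher at 7 weeks, with ratios of 3.99 and 2.44, while Drd2 and Adora2a had ratios of 1.33 and 1.18. Sp9 went the other way, from 37.3 ± 3.14 CPM at E18.5 to 5.82 ± 0.374 CPM at 7 weeks, 6.40 times higher in the embryo.

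Levels of different genes can be compared only per transcript length, which GENCODE M21 exons gave for 5 of the 6 genes (Gpr52 not used here). In control at 7 weeks the order, in CPM per kilobase, was Penk at 75.4 ± 13.5, Adora2a at 10.05 ± 1.47, Drd2 at 7.66 ± 1.497, Gpr6 at 5.25 ± 0.569 and Sp9 at 1.15 ± 0.0741 (SD, n = 5). The libraries of Adora2a and Drd2 overlapped in range (8.30 to 11.7 and 5.91 to 9.72). The other neighbours in this order did not overlap, though the highest library of Gpr6 (5.83) lay just under the lowest of Drd2. At E18.5 the order in control was Penk, Adora2a, Sp9, Drd2 and Gpr6, at 14.02, 8.50, 7.39, 5.74 and 2.15 CPM per kilobase, with Adora2a and Sp9 overlapping. In TETA the order of the means was the same as in control at each age, but more neighbours overlapped. At 7 weeks the TETA libraries of Adora2a (1.095 to 2.51), Drd2 (0.675 to 2.08), Gpr6 (0.433 to 1.92) and Sp9 (0.759 to 1.07) overlapped each with the next, in CPM per kilobase. In TETA replicate 3, the lowest library of each of these 4 genes, Sp9 lay above Drd2 and Gpr6. At E18.5 Sp9 in TETA (5.93 to 8.10) overlapped with Adora2a (7.33 to 8.22) and with Drd2 (5.34 to 6.40).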

How the data were processed

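Libraries were stranded mRNA libraries (TruSeq), per the labels' protocols, from mouse brain at E18.5 and 7 weeks. The deposited tables, 1 per age, give raw counts by gene symbol. The submitters' processing notes list STAR 2.7.1a, featureCounts 2.0.1 and the build mm10; whether counting used strand is not given in the sources used here, so reads of overlapping genes may be shared. Groups and replicate numbers came from sample titles, and every column matched 1 sample. No replicate pair agreed within counting noise (lowest chi-square per gene 2.30).

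The members and all gene lists were chosen with earlier results of these data known. Each age was fitted alone over all genes: filterByExpr with a minimum count of 10, TMM scaling, then glmQLFTest in edgeR, with p-values adjusted by Benjamini-Hochberg (BH) and a threshold of 0.05. Before that, 1940 E18.5 genes were divided by 11, as described. SE denotes standard error. CPM are TMM-scaled, mean ± SD, and other levels are log2(CPM + 1). On simulated counts with 200 genes changed by a log2 of 0.5 the test recovered 88.5% at E18.5 (13730 genes) and 81.0% at 7 weeks (14179 genes). All 6 indirect pathway genes passed the filter at both ages. Genes named are these 6, the genes of each list past the threshold at 7 weeks (up to 6 by p), the gene with the smallest p of each list at E18.5, and the 5 genes most like the mean of the 6; any other list gene named was chosen after its values were seen. The values of 1 list gene are not reported here. Replicate numbers shared by control and TETA did not pair the libraries (below). R 4.3.3 ran DESeq2 1.42.0, edgeR 4.0.16 and limma 3.58.1; Python 3.11.15 ran numpy 2.4.6, pandas 2.3.3, scipy 1.17.1 and matplotlib 3.10.9. Alternatives were DESeq2, no TMM factors, no filter, a mean count of at least 50, limma voom with library quality weights, leaving out each library, a replicate block and, at E18.5, counts as deposited; for correlations, a pseudocount of 0.1 and group means removed.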

Additional observations from a re-analysis of the deposited data

How the results depend on the processing

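At E18.5, 0 of the 6 genes passed under any of the 20 alternatives, while the count over all genes, 0 as reported, was 10 with DESeq2, 8 with library quality weights, and 0 to 7 on leaving out each library (7 without TETA replicate 1-2 and 3 without control replicate 3-2). The log2 fold changes kept their sign, except Drd2 (-0.0507 to 0.0124 on leaving out each library: above 0 at 0.0124, 0.0018 and 0.0069 without control replicate 3-1 or TETA replicate 1-1 or 2-1) and Gpr6 (-0.0272 to 0.1004, with -0.0272 without TETA replicate 3-1). Pairs of genes past the threshold at E18.5 went from 0 to 1 with group means removed and to 1 with counts as deposited, and were 0 to 2 on leaving out each library.

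At 7 weeks 1418 genes passed, 57.0% of them higher; without TMM factors 1483 did, 67.6% of them higher, and leaving out each library gave 927 (without TETA replicate 3) to 1392. The genes of both projection neuron types lower past the threshold were 14 or 15 under every alternative, the direct pathway genes 4 or 5, the signalling genes 9 to 13, the transcription factors 8 to 11, the enkephalin genes 4 to 6 and the GABA interneuron genes 2 or 3. The other indirect pathway genes went from 3 to between 1 and 3 on leaving out each library, and the cholinergic genes from 3 to 1 with a mean count of at least 50, where fewer are tested. The median log2 fold change of the choroid plexus list, -1.60, was -0.93 with no filter, -3.62 with a mean count of at least 50 and -0.99 with library quality weights. In all 15 alternatives the 7-week log2 fold changes of the 6 genes kept their sign, which says little for genes chosen as lower on this contrast. Gpr6 moved most, from -2.04 to -1.73 without TETA replicate 3.

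With the replicate block, 0 of the 6 genes and 0 genes in all passed at E18.5, by full number or by its first part, and 1072 genes passed at 7 weeks. Deviations of same-numbered libraries correlated between -0.322 and 0.331 at E18.5 and between -0.116 and -0.0355 at 7 weeks, so the numbers did not pair them. Among the lists, the count of genes lower past the threshold went from 1 to 0 for astrocytes and from 1 to 2 for choroid plexus, and was the same for the others.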

Other observations

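In the 24 groups of libraries formed by the 6 genes, 2 ages and 2 treatments, 0 had a library whose gap to its nearest neighbour exceeded the 95% critical value of Dixon's ratio, where chance gives about 1 in 20. The nearest were 2 TETA libraries at 7 weeks: replicate 1 for Gpr52, high with a ratio of 0.723, and replicate 3 for Adora2a, low with a ratio of 0.720, against a critical value of 0.829.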
